A study of Mus musculus with 18 samples.

Results

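The BCL-2 family of apoptosis regulators was followed in whole mouse kidneys collected 12 h after ischemia and reperfusion. Its 10 members were taken by name, namely the guardians *Bcl2*, *Bcl2l1* and *Mcl1*, the effectors *Bax* and *Bak1*, and the BH3-only genes *Bbc3*, *Pmaip1*, *Bcl2l11*, *Bid* and *Bad*. All 10 were found once each among the 45706 genes of the count files, of which 30346 had a read in at least 1 kidney, and all 10 passed the filter on low counts in every comparison. The fewest reads on a member were 75, for *Bbc3* in a control kidney, and the most were 15657, for *Mcl1*.

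The proteins of this family meet at the outer membrane of the mitochondrion. Effectors form pores there that release cytochrome c and start the caspase cascade, guardians hold the effectors in check, and BH3-only proteins sense stress and either block guardians or activate effectors directly. After renal ischemia, apoptosis of tubular cells is one of the ways in which the epithelium is lost, and several of these genes are textbook targets of p53, which is activated by hypoxia and DNA damage.

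The 18 kidneys, all of strain C57BL/6 by the labels (C57BL/6J for the floxed lines in the study's methods), formed a Cxcl12 cohort of 5 KO and 3 Control kidneys and a Myc cohort of 5 KO and 5 Control kidneys. KO mice carried a floxed *Cxcl12* or a floxed *Myc* gene on both alleles together with Pax8rtTA and TetOCre, and controls were male littermates with the same floxed alleles and Pax8rtTA but without TetOCre (the sample titles call them WT). All mice, controls included, were young adults that drank doxycycline and then water alone before both renal pedicles were clamped for 22.5 min, so no group was uninjured. Because Pax8rtTA directs Cre to tubular epithelium while RNA came from the whole kidney, vessels, glomeruli and leukocytes contributed transcripts from intact alleles, and in such bulk samples fewer cells of a type and less RNA per cell cannot be told apart.

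Between 12918220 and 29749500 reads per kidney fell on genes. The labels number the kidneys of a group but do not say that each came from another mouse, so p-values measure the spread between these samples. In the Myc cohort *Myc* fell from 79.7–117 to 26.6–37.0 CPM (normalized counts-per-million; log2 fold change −1.61, adjusted p = 8.8e-05), and in the Cxcl12 cohort *Cxcl12* lay at 26.3–40.9 in KO and 44.9–60.5 in control kidneys (log2 fold change −0.73 ± 0.15 SE, adjusted p = 0.094 in edgeR's quasi-likelihood test). Proximal tubule markers were all detected, with a summed level of 3163–4941 CPM. Their sum was 3637–4032 CPM in KO against 4276–4941 in control kidneys of the Cxcl12 cohort, and 3163–4872 against 3418–4110 in the Myc cohort. In the Cxcl12 cohort 6 of 6 markers had a negative log2 fold change (median −0.32, 0 called), and their part in the member values was not tested. In 6 kidneys (Cxcl12 KO 1 and 2, Myc KO 3 and 5, Myc Control 1 and 3) 3.69–4.63% of reads were unmapped, against 5.28–6.48% in the other 12, and the same 6 had the deepest libraries, with 22437067 to 29749500 reads on genes against 12918220 to 18006784. The study's methods speak of a correction for batch effects, but neither they nor the labels say which kidneys formed a batch. No Cxcl12 Control kidney was among the 6, so values with and without them are given wherever they alter a member.

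All levels are normalized counts-per-million (CPM), after the libraries were scaled by the trimmed mean of M values, and levels of different genes are set against each other only per kilobase of merged exon. Of the family, the guardian *Mcl1* had the highest level, 148 ± 16.6 CPM per kilobase (SD, n = 18), followed by *Bcl2l1* at 85.5 ± 6.57. The effector *Bax* stood at 30.6 ± 7.73 CPM per kilobase and *Bak1* at 11.6 ± 1.63. Among BH3-only genes *Pmaip1* had 23.2 ± 13.1, *Bid* 14.2 ± 3.89, *Bad* 9.17 ± 1.14, *Bbc3* 2.83 ± 0.564 and *Bcl2l11* 2.17 ± 0.416 CPM per kilobase. The guardian that gave the family its name, *Bcl2*, was at the low end with 1.94 ± 0.283 CPM per kilobase.

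This order was not equally firm along its length. *Mcl1* was above *Bcl2l1*, *Bcl2l1* above *Bax*, *Bak1* above *Bad* and *Bad* above *Bbc3* in 18 of 18 kidneys. *Bax* and *Pmaip1*, *Pmaip1* and *Bid*, and *Bid* and *Bak1* kept their order in 12 of 18 kidneys each, *Bbc3* and *Bcl2l11* in 15, and *Bcl2l11* and *Bcl2* in 13. These neighbours thus had no single order over all kidneys, and for the first 3 pairs the order differed by group. In Cxcl12 Control the mean of *Bax* was 37.6, of *Bid* 19.1, of *Bak1* 12.7 and of *Pmaip1* 8.38 CPM per kilobase. In Myc KO *Pmaip1* was at 39.7, *Bax* at 24.2, *Bak1* at 10.1 and *Bid* at 9.755. Counted only over exon bases that no other gene shares, *Bak1* stood at 15.6 and *Bad* at 11.5 CPM per kilobase, and *Bid* was above *Bak1* in 11 of 18 kidneys.

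**Figure D1:**
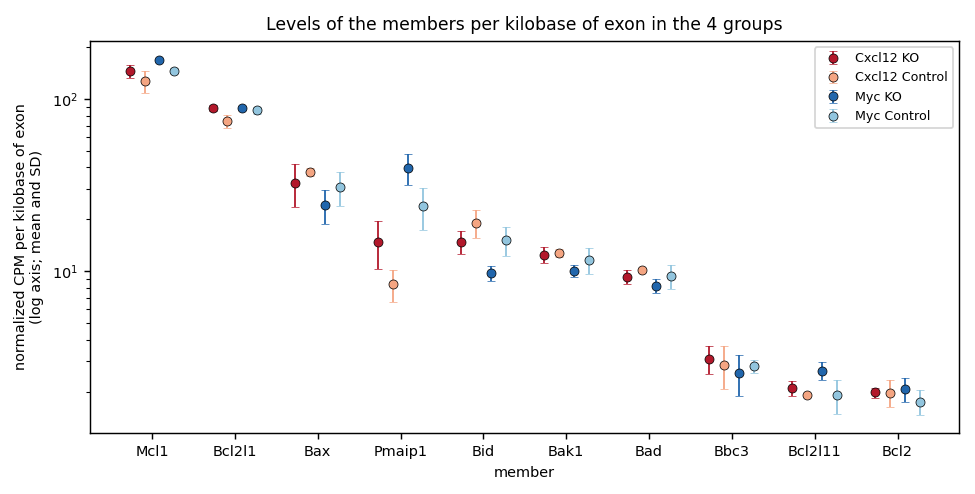
Mean level of each member per kilobase of merged exon in the 4 groups, on a log axis in normalized CPM per kilobase, with bars for the SD over 3 to 5 kidneys. *Mcl1* and *Bcl2l1* lie above all other members, *Bbc3*, *Bcl2l11* and *Bcl2* lie lowest, and *Pmaip1* spans the widest range between groups, from 8.38 in Cxcl12 Control to 39.7 in Myc KO.

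Among the guardians, none passed the test in either cohort, although for *Bcl2l1* in one cohort and *Mcl1* in the other every KO kidney lay above every control. *Bcl2* (ENSMUSG00000057329, GRCm38 chr1:106538178-106714274, minus strand) encodes the founding guardian, first found in follicular lymphoma. Its level in Cxcl12 KO kidneys 1 to 5 was 17.2, 17.3, 20.1, 18.4 and 17.4 CPM, and in the 3 controls 21.7, 16.3 and 16.1 CPM. In the Myc cohort, KO kidneys had 19.8, 16.9, 24, 16.6 and 17.8 CPM and controls 19.0, 13.4, 16.3, 13.4 and 18.03 CPM. The groups overlapped in both cohorts, with Myc KO 3 the highest kidney and Myc Control 2 and 4 the lowest. The log2 fold change was −0.0036 ± 0.12 (SE, adjusted p = 0.99) for Cxcl12 KO and 0.25 ± 0.13 (adjusted p = 0.29) for Myc KO in edgeR's quasi-likelihood test with Benjamini-Hochberg adjustment, which is the test meant wherever an adjusted p is given without another name. In the Cxcl12 cohort the interval of nearly 2 SE on either side ran from −0.24 to 0.23, and changes of *Bcl2* within it could not be resolved with 5 against 3 kidneys.

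*Bcl2l1* (ENSMUSG00000007659, chr2:152780668-152831728, minus strand) gives rise to BCL-XL, a guardian of many epithelia. Cxcl12 KO kidneys had 397, 384, 409, 421 and 426 CPM, and their controls 311, 338 and 369 CPM. All 5 KO kidneys were above all 3 controls, a separation in this direction seen in 4.96% of the 15154 genes tested (and in the opposite direction in 4.72%, among them no member). Its log2 fold change of 0.26 ± 0.091 (SE) had an adjusted p of 0.28 in edgeR's quasi-likelihood test, and *Bcl2l1* was therefore not called. Summed tubule injury markers (*Havcr1*, *Lcn2*, *Krt20*, *Sox9*) separated the same kidneys, at 2590–3146 CPM in KO and 1613–2440 in control, with 4 of 4 higher on average and 0 called, and their part in the *Bcl2l1* difference was not tested. Myc KO kidneys had 427, 407, 407, 402 and 391 CPM and Myc Control kidneys 380.2, 379, 415, 383 and 413 CPM. Here the groups overlapped and the log2 fold change was 0.048 ± 0.068 (adjusted p = 0.71).

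*Mcl1* (ENSMUSG00000038612, chr3:95658788-95663176, plus strand) encodes a short-lived guardian that is rapidly degraded when translation stops. Its values in Myc KO kidneys were 571, 556, 594, 563 and 575 CPM, and in Myc Control kidneys 497, 488, 529.9, 485 and 494 CPM. Every Myc KO kidney exceeded every control, as was the case in this direction for 2.05% of the 14936 genes tested. The difference was small, 0.20 ± 0.068 on the log2 scale or 1.15-fold, with adjusted p = 0.13, so it was not called by edgeR's quasi-likelihood test. DESeq2 gave the same fold with an adjusted p of 0.0011, and over 12 alternative settings the adjusted p ran from 0.0011 to 0.37 with 1 of 12 under 0.05. In the Cxcl12 cohort *Mcl1* was at 453, 499, 503, 461 and 557 CPM in KO and at 362, 467 and 472 CPM in control kidneys. These groups overlapped, one control standing well below the other two, and the log2 fold change was 0.18 ± 0.12 (adjusted p = 0.53).

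**Figure D2:**
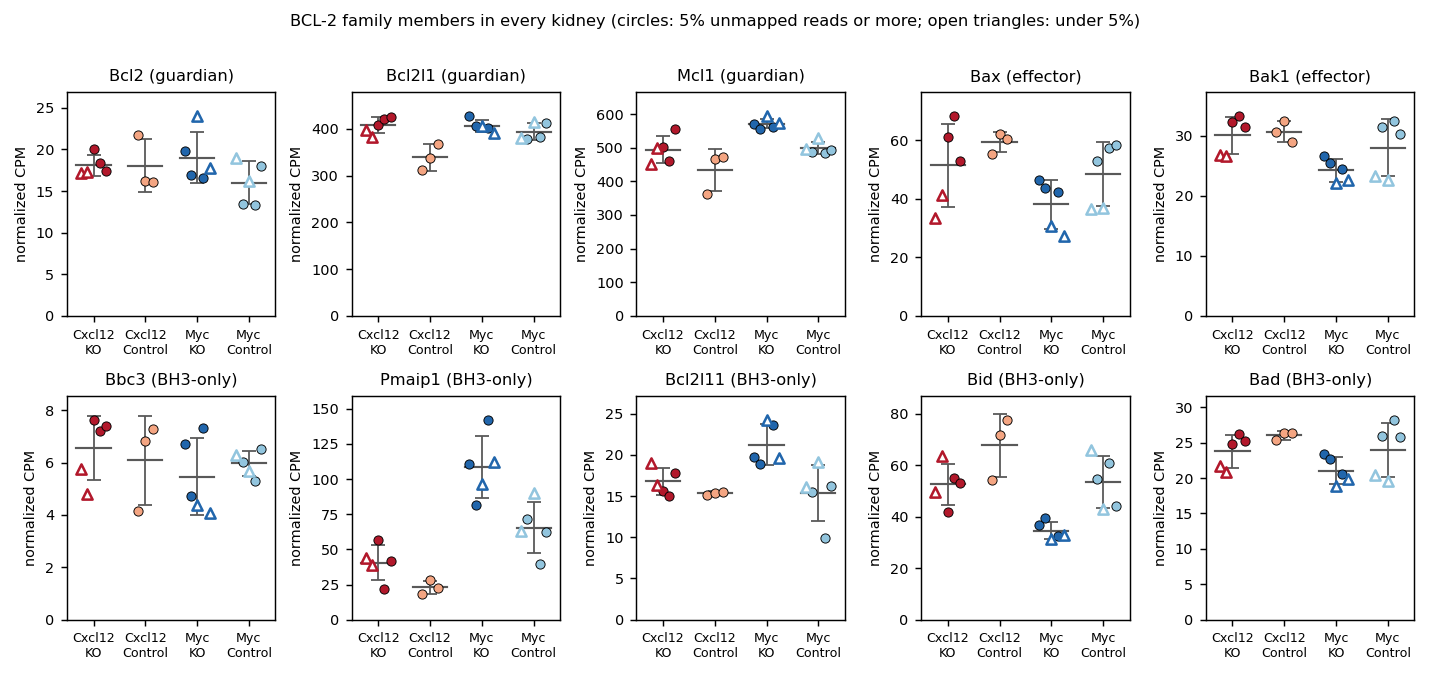
Normalized CPM of each of the 10 members in every kidney, by group, with the group mean (long bar) and SD (error bar). Open triangles are the 6 kidneys with under 5% unmapped reads and circles the other 12. For *Bax* all 6 triangles (27.4–41.3 CPM) lie below all 12 circles (42.3–68.3 CPM). How many of all genes separate so was not computed, while 9.95% were called lower in the 6 kidneys. For *Bid* all 5 Myc KO kidneys (31.4–39.4 CPM) lie below all 5 Myc Control kidneys (43.1–65.9 CPM), as for 3.92% of all genes tested.

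For the effectors, no KO effect passed the test, while both were lower in the 6 kidneys with few unmapped reads, as tested further on. *Bax* (ENSMUSG00000003873, chr7:45461697-45466898, minus strand) encodes the effector that moves from the cytosol to mitochondria on activation. Cxcl12 KO kidneys 1 to 5 had 33.6, 41.3, 61.3, 68.3 and 52.8 CPM, and their controls 55.5, 62.1 and 60.4 CPM. The 2 lowest KO kidneys, 1 and 2, are the 2 with few unmapped reads, whereas the other 3 spread around the controls. The *Bax* log2 fold change of −0.21 ± 0.19 (adjusted p = 0.66) became 0.023 (adjusted p = 0.95) without these 2 kidneys and 0.029 (adjusted p = 0.93) with the unmapped split as a covariate.

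In the Myc cohort *Bax* stood at 46.6, 43.5, 30.9, 42.3 and 27.4 CPM in KO and at 36.5, 52.9, 36.8, 57.4 and 58.3 CPM in control kidneys. Over all 10 kidneys the groups overlapped, but inside each mapping stratum they did not. With few unmapped reads the 2 KO kidneys had 27.4 and 30.9 CPM against 36.5 and 36.8 in 2 controls, and among the rest 3 KO kidneys had 42.3–46.6 against 52.9–58.3 in 3 controls. KO lay below control in both strata for 3 of the 10 members, *Bax*, *Bak1* and *Bid*, and for 8.22% of all genes tested. For *Bak1* the kidneys with few unmapped reads were all but tied, with 22.6 CPM in Myc KO 5 and 22.61 in Myc Control 3. The *Bax* log2 fold change of −0.34 ± 0.18 had an adjusted p of 0.28 without the covariate and 0.013 with it, in edgeR's quasi-likelihood test, at an unchanged size of −0.34. Over the 12 alternatives the adjusted p ran from 0.013 to 0.59, and the mapping covariate was the 1 setting under 0.05. Some 12.2% of the *Bax* exon length is shared with the overlapping gene *Gm45808* on the same strand, and reads there were not counted for either gene.

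*Bak1* (ENSMUSG00000057789, chr17:27019810-27029009, minus strand) encodes the effector that resides on mitochondria permanently. It was measured at 26.7, 26.6, 32.2, 33.2 and 31.4 CPM in Cxcl12 KO kidneys and at 30.5, 32.5 and 29.0 CPM in Cxcl12 Control kidneys. Myc KO kidneys had 26.7, 25.5, 22.1, 24.5 and 22.6 CPM and Myc Control kidneys 23.3, 31.5, 22.6, 32.5 and 30.2 CPM. The groups overlapped in both cohorts, and in the Myc cohort the kidneys with few unmapped reads were the lowest of their group, in KO and control alike. Log2 fold changes were −0.038 ± 0.10 (adjusted p = 0.91) for Cxcl12 KO and −0.20 ± 0.12 (adjusted p = 0.32) for Myc KO. Since 25.5% of its exon length overlaps *Ggnbp1* on the opposite strand and the counting ignored strand, the level of *Bak1* is a lower estimate.

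Because MYC binds DNA as a dimer with MAX at the E-box CACGTG, and p53 regulates several members, promoter windows of RefSeq (GRCm38.p6, 250 bases before to 50 after each annotated start) were searched on both strands for that palindrome and for the p53 half-site consensus. Windows of 9 members were searched, 15 in all, and no window of *Pmaip1* was included, so its promoter was not examined. Of these, 2 windows held an E-box, 1 of *Bax* and 1 of the 3 of *Bbc3*, against 7.15% of all 32851 windows. The *Bax* window held 2 E-boxes, the first beginning 9 bases before the start and the second 36 bases after it, as did 0.594% of all windows with 2 or more, and it was also the member window with a p53 half-site, which 8.36% of all windows contain. The 250 bases before the start of *Bax* are shown with the E-box in capitals, followed by those of *Bid*, the one member called in a KO comparison, whose whole window held no CACGTG. These matches are letters in a window and not binding sites.
Bax, chr7:45466899-45467148, minus strand: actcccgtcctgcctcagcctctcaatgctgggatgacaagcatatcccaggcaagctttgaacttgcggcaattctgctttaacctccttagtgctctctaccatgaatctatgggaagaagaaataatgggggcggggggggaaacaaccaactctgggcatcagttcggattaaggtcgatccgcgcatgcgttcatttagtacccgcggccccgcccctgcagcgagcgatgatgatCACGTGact
Bid, chr6:120916825-120917074, minus strand: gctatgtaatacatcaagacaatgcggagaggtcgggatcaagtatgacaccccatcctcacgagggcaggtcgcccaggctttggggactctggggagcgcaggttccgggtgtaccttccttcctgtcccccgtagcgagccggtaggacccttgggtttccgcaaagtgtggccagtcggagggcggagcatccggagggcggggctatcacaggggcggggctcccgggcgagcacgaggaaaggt

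Of the BH3-only genes, *Bid* was the only member of the whole family called in a KO comparison. *Bid* (ENSMUSG00000004446, chr6:120891930-120916853, minus strand) encodes the BH3-only protein that caspase-8 cleaves, which joins death receptors to the mitochondrial pathway. In Myc KO kidneys 1 to 5 it was measured at 36.9, 39.4, 31.4, 32.7 and 32.9 CPM, and in Myc Control kidneys at 65.9, 54.5, 43.1, 61.0 and 44.0 CPM. All 5 KO kidneys lay below all 5 controls, a pattern found in this direction in 3.92% of tested genes, and they also varied less, with an SD of 3.35 CPM against 10.1 CPM. *Bid* fell by 0.63 on the log2 scale (SE 0.12, adjusted p = 0.029 in edgeR's quasi-likelihood test), to 0.646 of the control level. That makes 1 of 10 members called lower, against 1.29% of all tested genes, and 0 members called higher, against 0.355%.

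The separation of *Bid* did not follow the mapping split. Within the kidneys with few unmapped reads it was 31.4–32.9 CPM in KO and 43.1–65.9 in control, and within the rest 32.7–39.4 in KO and 44.0–61.0 in control, a separation in both strata that 8.22% of all genes tested had. Its call was less firm than its direction. Over 12 alternative settings the log2 fold change lay between −0.67 and −0.54 and 10 of 12 passed, the exceptions being the fit without the 6 kidneys (adjusted p = 0.078) and the fit that blocked on replicate number (adjusted p = 0.051). When kidneys were left out singly the log2 fold change stayed between −0.71 and −0.55, and the call was lost without Myc KO 2, 3, 4 or 5 or without Myc Control 2 or 4, where the adjusted p was 0.065–0.10. Of the *Bid* exon length 17.7% is shared with *Bcl2l13*, which lies on the other strand. Counted by read strand, *Bid* remained called in the Myc cohort with both strand columns. These columns held about the same number of reads, so counting by strand cannot separate reads of the overlapping genes.

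In the Cxcl12 cohort *Bid* had 49.7, 63.5, 41.8, 55.0 and 53.1 CPM in KO and 54.1, 71.8 and 77.6 CPM in control kidneys. KO kidneys 2 and 4 exceeded the lowest control, so the groups overlapped. Here the log2 fold change was −0.37 ± 0.14 with adjusted p = 0.32 in edgeR's quasi-likelihood test. Between the cohorts the KO effects on *Bid* differed by −0.27 ± 0.20 on the log2 scale (adjusted p = 0.68), so the call in one cohort and its absence in the other is not a difference shown between them.

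*Pmaip1* (ENSMUSG00000024521, chr18:66458533-66465565, plus strand) encodes NOXA, a BH3-only protein that binds MCL1 and promotes its degradation. Myc KO kidneys had 111, 81.9, 96.5, 142 and 112 CPM and Myc Control kidneys 62.8, 71.4, 90.1, 39.7 and 62.6 CPM. The only overlap was between the lowest KO kidney and the highest control, Myc Control 3. The log2 fold change of 0.73 ± 0.19, or 1.66-fold, had an adjusted p of 0.075 in edgeR's quasi-likelihood test; it passed in DESeq2 (adjusted p = 0.0072), with the mapping covariate (adjusted p = 0.045) and without Myc Control 3 (adjusted p = 0.024). In Cxcl12 KO kidneys *Pmaip1* stood at 44.1, 39.1, 56.5, 21.5 and 41.6 CPM, and in their controls at 18.4, 28.0 and 22.3 CPM. KO kidney 4 fell among the controls and the other 4 lay above them. The log2 fold change was 0.82 ± 0.26, the largest of any member in that cohort, with adjusted p = 0.23 in edgeR, and DESeq2 gave an adjusted p of 0.048.

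For *Pmaip1* all 5 Myc Control kidneys (39.7–90.1 CPM) were also above all 3 Cxcl12 Control kidneys (18.4–28.0 CPM). This was not particular to *Pmaip1*. It held too for *Bcl2l1* (379–415 against 311–369 CPM) and *Mcl1* (485–530 against 362–472 CPM). The share of all genes separated in this way was not computed. These are descriptions without a test, since line, litter and cohort cannot be told apart. Neutrophil marker levels (*S100a8*, *S100a9*, *Cxcr2*, *Csf3r*, *Retnlg*, *Ly6g*) were ordered over the 4 groups as *Pmaip1* was. Their summed level was 18.4–25.9 CPM in Cxcl12 Control, 29.3–131 in Cxcl12 KO, 42.6–227 in Myc Control and 138–261 in Myc KO kidneys, and 5 of 5 markers tested were higher in KO in each cohort with 0 called, while *Ly6g* was too low to test. Endothelial marker sums (*Pecam1*, *Cdh5*, *Kdr*, *Emcn*) had medians of 408, 476, 481 and 727.5 CPM in these groups, in the same order. All 4 endothelial markers were higher in KO in each cohort with 0 called. Their sums overlapped between the controls, at 403–428 CPM in Cxcl12 Control and 395–671 in Myc Control. What neutrophils or endothelial cells contributed to the *Pmaip1* values was not tested.

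*Bcl2l11* (ENSMUSG00000027381, chr2:128126038-128162547, plus strand) encodes BIM, which can bind every guardian and is a target of FOXO factors. It was at 19.8, 18.9, 24.2, 23.6 and 19.6 CPM in Myc KO and at 16.1, 15.5, 19.2, 9.85 and 16.2 CPM in Myc Control kidneys. Again a single control, number 3, reached into the KO range, and control 4 was far below the rest. The log2 fold change was 0.46 ± 0.15 (adjusted p = 0.12), and DESeq2 gave an adjusted p of 0.048. Cxcl12 KO kidneys had 19.1, 16.4, 15.6, 15.04 and 17.8 CPM around 15.2, 15.4 and 15.5 CPM in their controls. The groups overlapped, and the log2 fold change of 0.12 ± 0.11 had an adjusted p of 0.65.

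*Bbc3* (ENSMUSG00000002083, chr7:16308393-16318205, plus strand) encodes PUMA, a p53-induced protein that binds all guardians, and was the member with the fewest reads, 75–168 per kidney. Its values were 5.77, 4.81, 7.62, 7.22 and 7.38 CPM in Cxcl12 KO, 4.15, 6.84 and 7.29 in Cxcl12 Control, 6.72, 4.73, 4.39, 7.33 and 4.09 in Myc KO, and 6.28, 6.03, 5.69, 5.30 and 6.53 in Myc Control kidneys. No group stood apart. Log2 fold changes were 0.093 ± 0.22 (adjusted p = 0.89) and −0.14 ± 0.17 (adjusted p = 0.66), and the sign in the Myc cohort turned to 0.076 without the 6 kidneys.

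*Bad* (ENSMUSG00000024959, chr19:6941861-6951899, plus strand) encodes a BH3-only protein that survival kinases such as AKT silence by phosphorylation. It was measured at 21.8, 20.8, 24.8, 26.2 and 25.2 CPM in Cxcl12 KO and at 25.3, 26.4 and 26.4 CPM in Cxcl12 Control kidneys. Myc KO kidneys had 23.3, 22.6, 18.8, 20.6 and 19.9 CPM and Myc Control kidneys 20.5, 25.9, 19.6, 28.2 and 25.8 CPM. KO and control overlapped in both cohorts, and the low controls of the Myc cohort were again the 2 with few unmapped reads. The log2 fold changes of −0.14 ± 0.099 (adjusted p = 0.57) and −0.18 ± 0.11 (adjusted p = 0.37) were not called. A further 20.5% of its exon length is shared with *Gpr137* on the opposite strand, so its level too is a lower estimate.

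**Figure D3:**
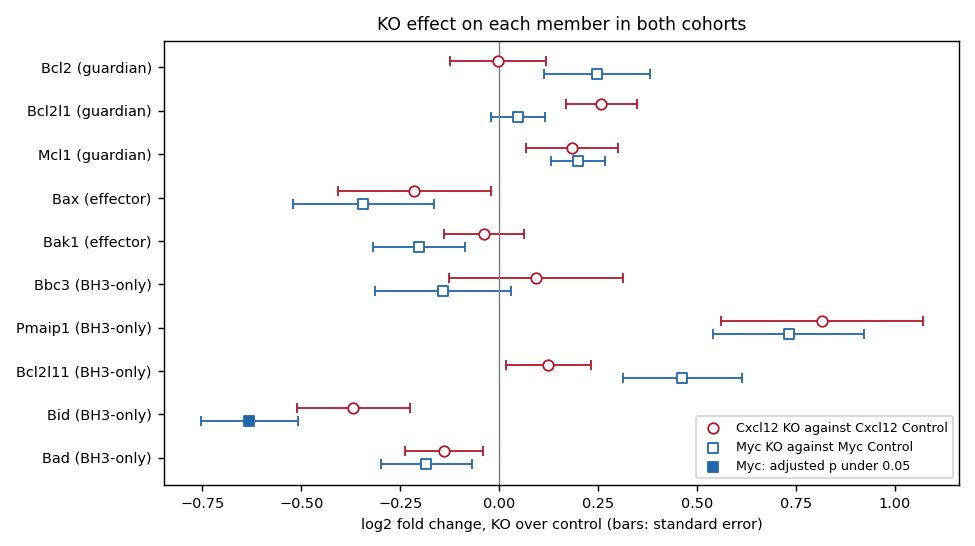
Log2 fold change of KO over control for each member in the Cxcl12 cohort (circles) and the Myc cohort (squares), with bars of 1 standard error. The filled square is *Bid* in the Myc cohort, −0.63, the one effect with an adjusted p under 0.05, and *Pmaip1* has the largest positive effects, 0.82 and 0.73.

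Read as a family, the members did not shift one way. In each cohort 5 of 10 log2 fold changes were positive and 5 negative, with a median of 0.045 for Cxcl12 KO and −0.046 for Myc KO, against 0.00083 and −0.00083 over all genes tested. For Cxcl12 KO, 0 of 10 members were called, as were 0% of all genes. Unadjusted, 3 of 10 members (*Bcl2l1*, *Pmaip1* and *Bid*) had p under 0.05, against 13.0% of all genes, DESeq2 called 1 member and 2.34% of all genes, and limma-voom called 0. For Myc KO, DESeq2 called 4 members (*Bid*, *Mcl1*, *Pmaip1* and *Bcl2l11*) and 7.63% of all genes, and the fit with the mapping covariate called 3 (*Bax*, *Bid* and *Pmaip1*) and 6.39% of all genes.

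The KO effects of the cohorts were compared in one fit over all 18 kidneys. None of the 10 members was called for a difference between the cohorts, against 0.0692% of all 15903 genes called, and DESeq2 and limma-voom called 0 members as well. Unadjusted, *Bcl2l1* alone had p under 0.05 (−0.22 ± 0.098, adjusted p = 0.41 in edgeR's quasi-likelihood test), 1 of 10 against 11.4% of all genes. The interval of nearly 2 SE for *Pmaip1* ran from −0.75 to 0.57, so sizeable differences between cohorts could have gone unseen.

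Ratios of an effector to a guardian, formed per length within each kidney, are given as description. The log2 ratio of *Bax* to *Bcl2* was 4.00 ± 0.36 (SD, n = 5) in Cxcl12 KO, 4.27 ± 0.33 (n = 3) in Cxcl12 Control, 3.53 ± 0.46 (n = 5) in Myc KO and 4.12 ± 0.50 (n = 5) in Myc Control kidneys. Against the more abundant guardian *Bcl2l1*, the log2 ratio of *Bax* was −1.49 ± 0.38, −0.97 ± 0.084, −1.90 ± 0.31 and −1.52 ± 0.35 in the same order. *Bak1* to *Mcl1* gave −3.54 ± 0.17, −3.31 ± 0.23, −4.06 ± 0.14 and −3.66 ± 0.29. All 3 ratios had a lower mean in KO than in control in both cohorts, but they are not independent, since *Bax* enters more than 1 of them. Without the 6 kidneys of few unmapped reads the *Bax* to *Bcl2* means in the Cxcl12 cohort were 4.24 ± 0.16 (n = 3) and 4.27 ± 0.33 (n = 3), a gap smaller than either SD. In the Myc cohort they were 3.86 ± 0.071 (n = 3) and 4.46 ± 0.21 (n = 3). For *Bax* to *Bcl2l1* the means without the 6 kidneys were −1.25 ± 0.20 and −0.97 ± 0.084 in the Cxcl12 cohort. In the Myc cohort they were −1.68 ± 0.027 and −1.26 ± 0.056. For *Bak1* to *Mcl1* they were −3.46 ± 0.18 and −3.31 ± 0.23, then −3.96 ± 0.052 and −3.455 ± 0.066. All 3 ratios were also lower in the 6 kidneys with few unmapped reads, for *Bax* to *Bcl2* 3.43 ± 0.34 against 4.21 ± 0.29 in the other 12.

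The mapping split itself was fitted as a term beside the 4 groups, a comparison added after the data were seen. *Bax*, *Bak1* and *Bad* were lower in the 6 kidneys, whereas no guardian was called. *Bax* fell by 0.64 on the log2 scale (SE 0.063, adjusted p = 1.2e-06 in edgeR's quasi-likelihood test), *Bak1* by 0.31 (SE 0.051, adjusted p = 0.00038) and *Bad* by 0.29 (SE 0.053, adjusted p = 0.00089). *Bbc3* had a log2 difference of −0.34 ± 0.14 (adjusted p = 0.10), and the other 6 members lay between −0.042 and 0.18 and were not called. Thus 3 of 10 members were called lower and 0 higher, where 9.95% of all genes were called lower and 6.01% higher. Leaving out any 1 of the 18 kidneys kept all 3 calls, but in the fit that blocked on replicate number *Bax* alone was called (adjusted p = 0.0022), with *Bak1* at an adjusted p of 0.11 and *Bad* at 0.22. The *Bax* shift of 0.64 stood beside KO effects of −0.21 and −0.34 in the 2 cohorts. Which property of these kidneys or libraries goes with the lower values was not tested, and depth and unmapped share cannot be told apart here.

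**Figure D4:**
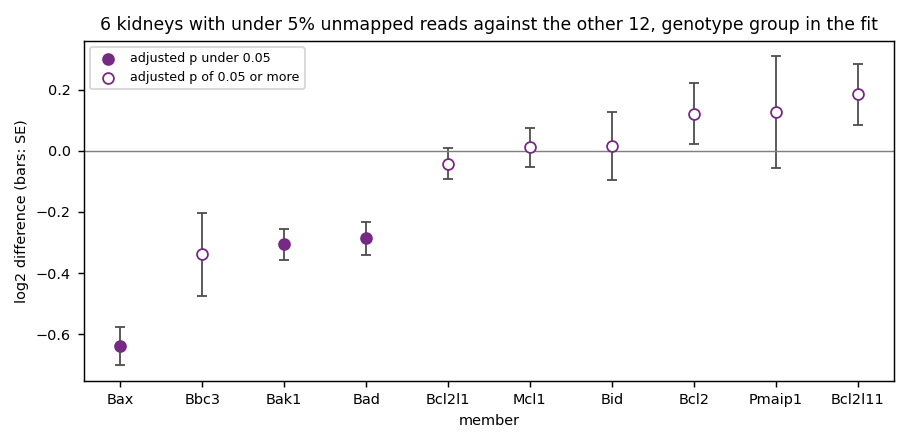
Log2 difference of each member between the 6 kidneys with under 5% unmapped reads and the other 12, with the genotype group in the fit and bars of 1 standard error. Filled points (*Bax* −0.64, *Bak1* −0.31, *Bad* −0.29) have an adjusted p under 0.05, and the guardians and *Bid* lie between −0.042 and 0.12.

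Across the 18 kidneys, after each group's mean was removed, the closest pair of members was *Bak1* and *Bad* with Pearson's r = 0.96, followed by *Bax* and *Bak1* (0.88) and *Bax* and *Bad* (0.86). These points share their libraries and their depth. With the mean of each mapping stratum removed as well, r was 0.62, 0.31 and 0.16. *Pmaip1* and *Bcl2l11* were at 0.63 and then 0.58, and *Bcl2l1* and *Mcl1* at 0.60 and then 0.61, so these pairs depended less on the split. Of the 45 pairs, 7 had r over 0.5 and 2 had r under −0.5.

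Around the family, 65 other genes of the pathway were followed, of which 56 passed the filter. For Cxcl12 KO 0 of 56 were called, with a median log2 fold change of 0.033. For Myc KO 0 were called higher and 4 lower, *Trp53*, *Aen*, *Phlda3* and the deleted *Myc* itself, with a median of −0.0030, where 0.355% of all genes were called higher and 1.29% lower. The 9 untested genes, among them the leukocyte guardians *Bcl2a1a*, *Bcl2a1b* and *Bcl2a1d* and the neuronal BH3-only gene *Hrk*, had at most 16 reads in any kidney.

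*Trp53*, the gene of p53 itself, fell by 0.50 on the log2 scale in Myc KO kidneys (SE 0.080, adjusted p = 0.014 in edgeR's quasi-likelihood test), from 52.9–67.0 CPM in controls to 40.0–46.1 CPM. *Aen*, a nuclease gene that p53 induces, fell by 0.48 (SE 0.072, adjusted p = 0.012), from 40.8–49.1 to 30.4–34.9 CPM. *Phlda3*, a p53 target that restrains AKT, fell by 0.57 (SE 0.11, adjusted p = 0.028), from 14.9–18.8 to 9.47–13.4 CPM. For all 3 genes, named because they were called, the groups did not overlap, with KO below, as in 3.92% of all 14936 genes tested. Of the 12 p53 targets listed outside the family these 2 were called, the other 10 were not, and 6 of 12 had a negative sign, *Cdkn1a* being at 0.13 ± 0.11 (adjusted p = 0.52). The calls were lost without the 6 kidneys (adjusted p = 0.056 for *Trp53*, 0.057 for *Aen* and 0.062 for *Phlda3*) and in the fit that blocked on replicate number (0.052, 0.051 and 0.058), and *Phlda3* also lost its call with strand column 4 (adjusted p = 0.10). With single kidneys left out they were lost for all 3 genes without Myc KO 2 or Myc KO 3, for *Trp53* and *Phlda3* without Myc Control 2, and for *Phlda3* alone without Myc KO 5, Myc Control 4 or Myc Control 5, with adjusted p of 0.051–0.089 in these fits.

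The other lists held no called gene in either KO comparison. Of the caspases and the apoptosome, *Apaf1*, the scaffold that cytochrome c assembles, had log2 fold changes of 0.42 ± 0.091 in the Cxcl12 cohort (adjusted p = 0.11) and 0.32 ± 0.11 in the Myc cohort (adjusted p = 0.14). *Birc3*, an inhibitor of apoptosis induced by NF-κB, had 0.50 ± 0.14 (adjusted p = 0.19) and 0.35 ± 0.10 (adjusted p = 0.097). *Bmf*, a BH3-only gene outside the 10, had 0.48 ± 0.16 (adjusted p = 0.27) and 0.48 ± 0.19 (adjusted p = 0.16). Each of these had the largest or second largest change of its list in both cohorts, and none is a call.

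From the remaining lists, genes with the largest or the next largest change of their list in either cohort are given. *Bcl2l2*, the guardian BCL-W, had log2 fold changes of 0.12 ± 0.078 and 0.17 ± 0.077 in the Cxcl12 and Myc cohorts, and *Bok*, the third effector, −0.20 ± 0.14 and −0.064 ± 0.19. Of the factors released from mitochondria and the channels of their outer membrane (*Aifm1*, *Endog*, *Vdac1*, *Vdac2* and *Vdac3*), all 5 had a negative sign in the Myc cohort and 4 of 5 in the Cxcl12 cohort, with the nuclease *Endog* at −0.42 ± 0.17 and −0.34 ± 0.18. The relative *Bcl2l12* was at −0.21 ± 0.21 and −0.39 ± 0.15, and *Bcl2l14* at −0.22 ± 0.37 and 0.12 ± 0.24. Of the genes that turn over MCL1 and BIM, the deubiquitinase *Usp9x*, which stabilizes MCL1, had 0.15 ± 0.11 and 0.20 ± 0.10, and the deubiquitinase *Usp13* had 0.73 ± 0.30 (adjusted p = 0.34) and 0.19 ± 0.22. In the Cxcl12 cohort the p53 targets *Trp53inp1* and *Cdkn1a* were at 0.75 ± 0.26 (adjusted p = 0.28) and 0.51 ± 0.15 (adjusted p = 0.22), and *E2f1*, a transcription factor of the cell cycle, at −0.78 ± 0.26 (adjusted p = 0.25).

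**Figure D5:**
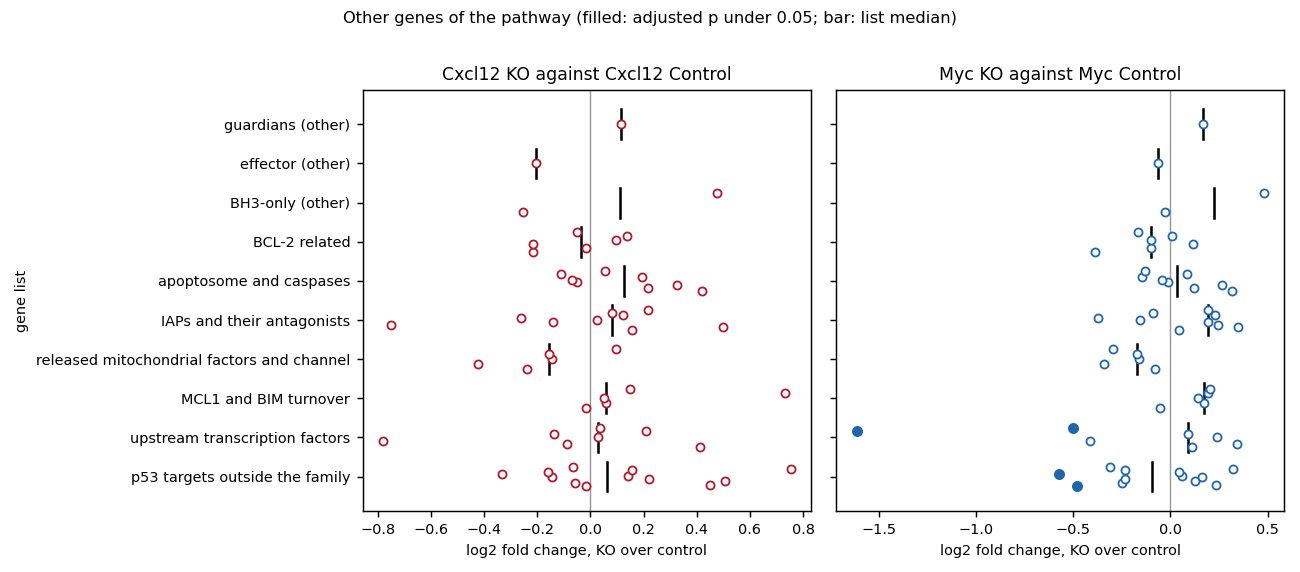
Log2 fold change of KO over control for each of the 56 tested pathway genes, by list, in the Cxcl12 cohort (left) and the Myc cohort (right), with a black bar for each list's median. The 4 filled points, all on the Myc side, are *Myc* at −1.61, *Phlda3* at −0.57, *Trp53* at −0.50 and *Aen* at −0.48.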

How the data were processed

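Total RNA of snap-frozen whole kidneys was sequenced in 18 libraries. Per the study's methods and the submitters' processing notes, the authors trimmed reads with Trimmomatic 0.32, aligned them to GRCm38 with STAR 2.4.0 and deposited its raw gene counts, with 1 file per kidney; the annotation release is not given in the sources used here. Count column 2 (strand ignored) was used, since columns 3 and 4 each held about the same number of reads (51.8–52.4% and 52.3–52.8%). Between 29.4 and 32.6% of reads were not assigned to a gene (unmapped, mapped to several places, ambiguous between genes or outside genes). Genes were named and measured (merged exons) with GENCODE vM21 for 45143 identifiers.

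Each cohort was fitted in edgeR 4.0.16 (filterByExpr, TMM, quasi-likelihood F-test, Benjamini-Hochberg adjustment, called under 0.05), with SE taken as the absolute log2 fold change over the square root of F, and cohorts were compared over all 18 kidneys. limma-voom 3.58.1 and DESeq2 1.42.0 were alternatives, beside other scalings, filters, strand columns, a replicate block, a mapping covariate (under 5% unmapped) and the omission of kidneys. The scripts were tested on simulated data. The 33 pairs of kidneys of one group all differed beyond counting noise (chi-square per degree of freedom 5.77–69.1). Members and lists were chosen with earlier results of these data known. All members are named; of the lists, genes called and otherwise the 2 largest changes, of which 1 gene is not reported here. R 4.3.3 and Python 3.11.15 were used.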

Additional observations from a re-analysis of the deposited data

Results flagged for a closer look

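Among the 39 groups of 5 kidneys examined (10 members and 3 ratios in 3 groups), 1 held a kidney far from the rest. *Mcl1* in Myc Control 3 stood at 530 CPM, with the next control at 497 and the lowest at 485, so that the gap was 0.717 of the whole range. Chance sets such a kidney apart in about 1 in 20 groups, and this kidney still lay below every Myc KO kidney. The same kidney was also the highest control for *Pmaip1* and *Bcl2l11* and the lowest for *Bid*.

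The KO effects on *Myc*, an upstream factor in the lists and the gene deleted in one cohort, differed between the cohorts by −1.83 on the log2 scale (adjusted p = 0.00011 in edgeR's quasi-likelihood test).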

How the results depend on the processing

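Under the settings other than leaving out a kidney, 563 values kept their direction and their side of the threshold, 19 changed sign, 6 gained and 11 lost a call, and 59 counts or levels moved. The sign turned for the following values, none of them called. In the Cxcl12 cohort *Bcl2* was at 0.050 and *Bak1* at 0.083 on the log2 scale with count column 3; with the mapping covariate *Bcl2* was at 0.039, *Bax* at 0.029 and *Bak1* at 0.066; without the 6 kidneys of few unmapped reads they were at 0.032, 0.023 and 0.060; and *Bcl2* was at 0.000476 with all 18 kidneys in the fit. In the Myc cohort *Bbc3* was at 0.076 without the 6 kidneys. For the difference between cohorts *Mcl1* was at −0.00249 with no filter and at −0.019 with column 3, *Bax* at 4.99e-05 with column 3, and *Pmaip1* at 0.17 without the 6 kidneys. The cause was not tested.

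Counts of called genes depended on the setting. For Cxcl12 KO 0 genes were called, against 17 with library size alone, 214 with no filter, 355 in DESeq2 (1 member), 9 with column 3, 123 with the mapping covariate, 80 without the 6 kidneys and 25 with all 18 kidneys in the fit. For Myc KO 246 genes were called, against 391, 1139 in DESeq2 (4 members), 954 with the covariate (3 members), 8 without the 6 kidneys (0 members, on fewer samples) and 683 with all 18 kidneys, and *Phlda3* lost its call with column 4 (adjusted p = 0.10). For the difference 11 genes were called, against 5 with library size alone, 314 in DESeq2, 3 in limma-voom, 4 and 7 with columns 3 and 4, 133 with the covariate and 44 without the 6 kidneys.

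Kidneys left out singly gave 0–15 called genes for Cxcl12 KO (15 without KO 1, 9 without KO 2 and 3 without Control 3), 21–877 for Myc KO and 1–75 for the difference, with 0–2 members for Myc KO. The Myc count moved by over 1.5 times without KO 2 (21), 3 (29), 4 (54) or 5 (78) or Control 2 (35), 3 (877), 4 (96) or 5 (108). The sign turned within the ranges of −0.082 to 0.15 for *Bcl2*, −0.081 to 0.0047 for *Bak1* and −0.12 to 0.24 for *Bbc3* in the Cxcl12 cohort, of −0.057 to 0.13 for *Mcl1*, −0.27 to 0.062 for *Pmaip1* and −0.12 to 0.023 for *Bad* in the difference, and of −0.0080 to 0.044 for *Mcl1* and −0.067 to 0.083 for *Bid* in the mapping comparison.

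Kidneys were treated as unpaired, although KO and control kidneys share replicate numbers. Deviations of same-numbered kidneys correlated at −0.032 to 0.13 in the Cxcl12 cohort and at −0.21 to 0.40 in the Myc cohort. Not every kidney correlated best with its own number. Myc KO 3 and 5 correlated at 0.28 to 0.48 with Myc Control 1 and 3, all of few unmapped reads, and negatively with the other controls. Whether kidneys were paired by number therefore cannot be judged from these values. With the replicate block 0 genes were called for Cxcl12 KO, 18 for Myc KO (0 members), 1 for the difference and 642 in place of 2537 for the mapping split (1 member, *Bax*). Under the block *Bid* had an adjusted p of 0.051, *Trp53* 0.052, *Aen* 0.051 and *Phlda3* 0.058 in the Myc cohort, and *Bcl2* was at 0.015 in the Cxcl12 cohort. *Bax* at 0.089 and *Bad* at 0.041 in the difference and *Bcl2* at −0.14 and *Pmaip1* at −0.10 in the mapping comparison changed sign under this block.

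Depth limited *Bbc3* most, with 75–168 reads per kidney. With strand columns 3 and 4 the mean of *Bak1* rose in level from 24.3 to 30.7 and 29.5 CPM in Myc KO, by the construction of counting each strand apart.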
